A study of Rattus norvegicus with 9 samples.

Results

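The 10 genes described here belong to the fibroblast growth factor (FGF) circuit that drives branching of the fetal lung: the ligands Fgf10, Fgf7 and Fgf9, the receptor Fgfr2, the transcription factors Etv4 and Etv5, and the feedback inhibitors Spry1, Spry2, Spry4 and Dusp6. They were chosen by name from the pathway, with earlier results of these data known, and all 10 were found among the 17465 genes of the deposited table and passed the filter on low counts. RNA was measured in 9 whole lungs of Sprague-Dawley rat fetuses, in 3 groups of 3. The control lungs had no treatment. The hypoplastic lungs, which were underdeveloped after oligohydramnios (a lack of amniotic fluid, named in the series title), also had no treatment. The treated lungs were hypoplastic lungs given AFSC-EVs, which are extracellular vesicles released by amniotic fluid stem cells. The sources used here do not give fetal age or litter, nor the dose, route and time of the vesicles, so the p-values cover the spread between these lungs only, whatever litters they came from.

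In the growing lung, FGF10 is made by mesenchyme at the distal tips and acts on the epithelial splice form of FGFR2, and the epithelium grows out towards it. FGF7 is another mesenchymal ligand of the same receptor form, while FGF9 comes from mesothelium and epithelium and acts mainly on mesenchyme. The receptor signals through RAS and ERK, which switch on the ETS factors ETV4 and ETV5 and also the inhibitors that limit the signal: the Sprouty proteins act between the receptor and RAS, and DUSP6 removes phosphate from ERK. The levels of the ETS factors and inhibitors are therefore often used as a readout of FGF signalling, although other receptor kinases switch them on as well.

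The libraries held 56922779 to 88243188 estimated counts, of which 14.1 to 19.9% were ribosomal and 7SL RNA. Levels are given in CPM, the counts scaled to a common library size corrected by TMM (a method that allows for differences in RNA composition), with TMM factors of 0.948 to 1.05. At this depth the lowest count of any of the 10 genes in any library was 35, for Fgf7 in control library 2. By Xist and Y-linked genes, 2 of 3 control lungs and 1 of 3 lungs in each other group were male. Control library 2 and hypoplastic library 2 lay at the ends of the first principal component (-54.9 and 62.2), so results that rest on them are given without them. The 8 lung epithelial markers summed to 1763 CPM or more in each library and none was at 0, while the 6 liver markers summed to 6.08 CPM or less. The 7 heart muscle markers summed to 256 and 122 CPM in hypoplastic libraries 1 and 2 and to 19.3 CPM or less in the other 7.

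No member of the circuit differed between any of the groups at an adjusted p under 0.05. Fgf10 itself was at nearly the same mean level in the 3 groups, between 5.30 and 5.44 CPM. The differences furthest from their error were in the ETS factor Etv5, which had a higher mean in treated than in hypoplastic lungs, and in its partner Etv4, which had a higher mean in hypoplastic than in control lungs. For each member, the spread between the lungs of at least 1 group was wider than that between the group means. Fgf7 and the Sprouty genes tended to be high in the same lungs. By Pearson's correlation, 3 of their pairs had an adjusted p under 0.05 (exact permutation). None had one by Spearman's rank correlation, or by Pearson's without control library 2.

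In each of the 3 comparisons 0 of the 10 members were called by edgeR's quasi-likelihood test, against 0.00771%, 0% and 0% of the 12966 genes tested. The comparisons are given throughout in the order hypoplastic minus control, treated minus hypoplastic, treated minus control. DESeq2 called none of the 10 either, where its calls among all genes were 1.48%, 0.114% and 0.119%. At an unadjusted p under 0.05 edgeR listed 0 of 10, 1 of 10 and 0 of 10 members, against 12.4% (6.67% higher, 5.69% lower), 5.56% (2.0% higher, 3.56% lower) and 4.17% (1.67% higher, 2.5% lower) of all genes. The libraries of the groups compared did not overlap for 1 of 10, 1 of 10 and 0 of 10 members, against 16.7% (7.68% higher, 9.05% lower), 9.81% (5.07% higher, 4.74% lower) and 9.39% (4.37% higher, 5.02% lower) of all genes. With 10 members, shares of this size stand for 1 or 2 genes. The median log2 difference of the 10 was 0.15 between hypoplastic and control lungs (7 of 10 above 0), -0.01 between treated and hypoplastic lungs (4 of 10 above 0) and 0.17 between treated and control lungs (9 of 10 above 0). The medians of all genes were 0.01, -0.01 and 0.0028, and 51.9%, 48.1% and 50.6% of genes lay above 0. These counts rested on single libraries. Without control library 2 the median between hypoplastic and control lungs was -0.05 (4 of 10 above 0) and that between treated and control lungs was 0.02 (6 of 10 above 0). Without hypoplastic library 2 the median between hypoplastic and control lungs was 0.08 (6 of 10 above 0), and that between treated and hypoplastic lungs was 0.16 (6 of 10 above 0). With the sex of the lung as a covariate the median between hypoplastic and control lungs was 0.07. The comparisons share libraries and are not independent of each other.

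**Figure D1:**
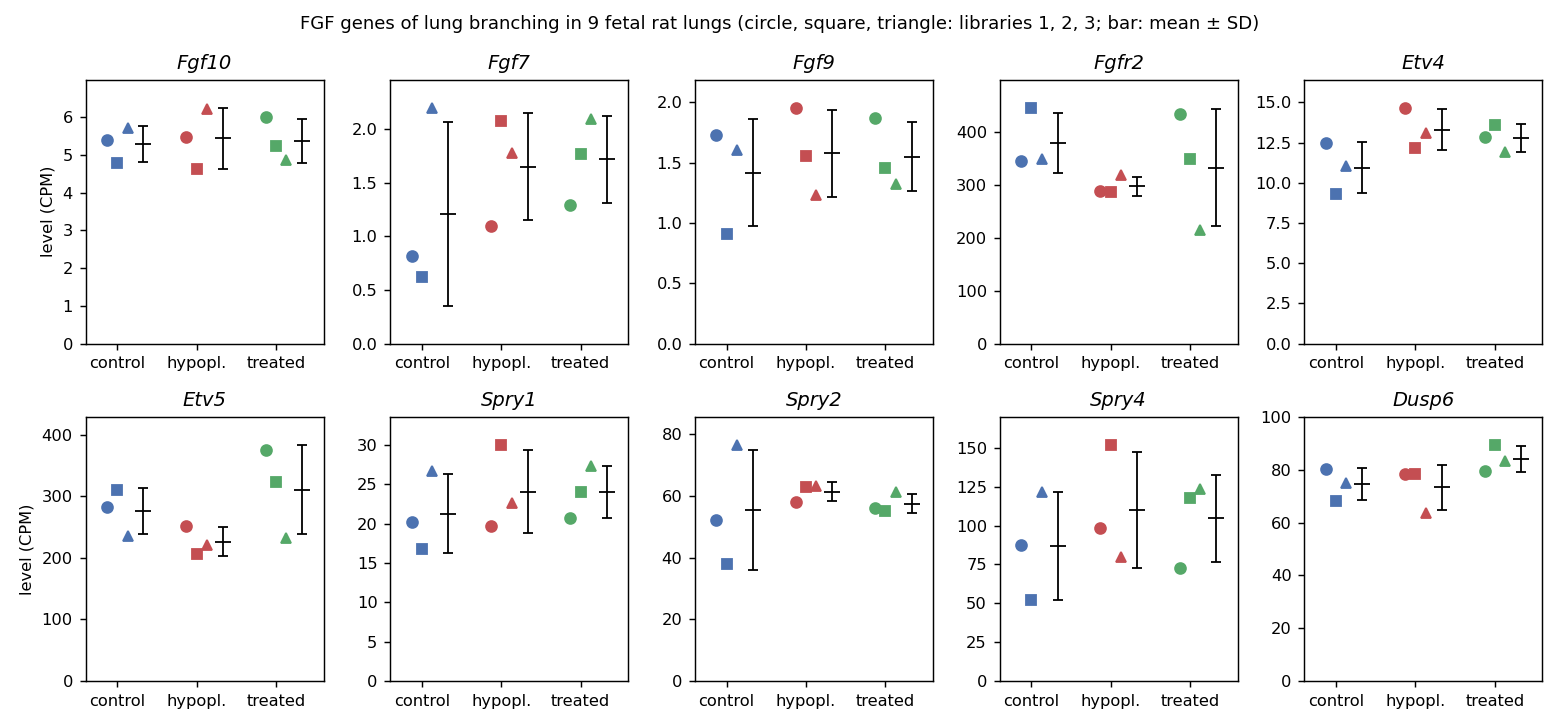
Level of each gene (y axis, CPM, from 0) in each library of the control, hypoplastic and treated lungs (x axis); circles, squares and triangles are libraries 1, 2 and 3, and the black bar is the mean ± SD of 3 lungs. Points of the 3 groups overlap in most panels; in that of Fgfr2 the 3 hypoplastic lungs (286 to 318 CPM) lie below the 3 control lungs (344 to 444 CPM).

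Among the ligands, Fgf10 (Gene ID 25443) was at 5.40, 4.78 and 5.71 CPM in control libraries 1 to 3, at 5.47, 4.62 and 6.23 CPM in the hypoplastic libraries and at 6.01, 5.24 and 4.87 CPM in the treated libraries. The groups overlapped fully, and the highest and lowest of the 9 lungs were both hypoplastic. The log2 difference between hypoplastic and control lungs was 0.04 (95% interval -0.36 to 0.43, edgeR adjusted p 0.949), which corresponds to 0.78 to 1.35 times the control level. Between treated and hypoplastic lungs it was -0.02 (interval -0.41 to 0.38, edgeR adjusted p 0.990). Larger changes of Fgf10 RNA in the whole lung lie outside these intervals, but they do not show where in the lung the RNA was.

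Fgf7 (Gene ID 29348), also known as keratinocyte growth factor, was at 0.812, 0.624 and 2.20 CPM in control, 1.10, 2.07 and 1.77 CPM in hypoplastic and 1.29, 1.77 and 2.09 CPM in treated lungs. Its level differed most among the controls, where the highest lung had 3.52 times the lowest, while the highest group mean was 1.42 times the lowest. From control to hypoplastic lungs the log2 difference was 0.41 (SE 0.460, edgeR adjusted p 0.751), and its interval ran from -0.63 to 1.44. This difference depended on single control libraries. Without control library 3 it was 1.18 (edgeR unadjusted p 0.0178, adjusted p 0.361). Without control library 1 it was 0.18, and without control library 2 it was 0.11.

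Fgf9 (Gene ID 25444) had levels of 1.73, 0.910 and 1.60 CPM in control, 1.95, 1.55 and 1.23 CPM in hypoplastic and 1.87, 1.45 and 1.32 CPM in treated lungs. Apart from the low value of control library 2, all lungs lay between 1.23 and 1.95 CPM. Hypoplastic minus control, the log2 difference was 0.15 (SE 0.304, edgeR adjusted p 0.871), and -0.07 without control library 2. Treated minus hypoplastic, it was -0.03 (SE 0.299, edgeR adjusted p 0.990).

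Fgfr2 (Gene ID 25022), the receptor of FGF10 and FGF7, was at 344, 444 and 349 CPM in control, 287, 286 and 318 CPM in hypoplastic and 433, 348 and 214 CPM in treated lungs. The 3 hypoplastic lungs were close together and all below the controls, while the treated lungs held both the lowest value of all 9 and the second highest. Hypoplastic minus control, the log2 difference was -0.35 (95% interval -0.85 to 0.14, edgeR unadjusted p 0.145, adjusted p 0.535), and it was -0.22 without control library 2. When only the 6 libraries of these groups were fitted, without the scatter of the treated lungs, the unadjusted p was 0.0295 and the adjusted p 0.459. The log2 difference from hypoplastic to treated lungs was 0.16 (interval -0.34 to 0.66, edgeR adjusted p 0.960). It was -0.08 without treated library 1, and 0.40 (edgeR unadjusted p 0.0298, adjusted p 0.667) when treated library 3 was left out. The table counts all splice forms of Fgfr2 together, so the epithelial and mesenchymal forms could not be told apart.

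The ETS factor Etv4 (Gene ID 360635) had levels of 12.4, 9.28 and 11.1 CPM in control, 14.6, 12.2 and 13.1 CPM in hypoplastic and 12.9, 13.6 and 11.9 CPM in treated lungs. Control library 1 was the only control within the range of the hypoplastic lungs. The log2 difference between hypoplastic and control lungs was 0.28 (SE 0.148, 95% interval -0.05 to 0.61, edgeR unadjusted p 0.0872, adjusted p 0.466), and it was 0.18 without control library 2. Between treated and hypoplastic lungs it was -0.06 (SE 0.147, edgeR adjusted p 0.973).

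Etv5 (Gene ID 303828), the other ETS factor of the tip epithelium, was at 284, 310 and 235 CPM in control, 252, 206 and 221 CPM in hypoplastic and 376, 324 and 233 CPM in treated lungs. Treated libraries 1 and 2 were above all other lungs, whereas treated library 3 lay within the range of the hypoplastic lungs. Between treated and hypoplastic lungs the log2 difference was 0.46 (95% interval 0.06 to 0.86, edgeR unadjusted p 0.0281, adjusted p 0.896), or 1.37-fold. It was 0.30 when treated library 1 was left out and 0.63 when treated library 3 was left out (edgeR unadjusted p 0.126 and 0.00236), and the adjusted p was 0.647 or more under each alternative. Between hypoplastic and control lungs the log2 difference was -0.29 (SE 0.177, edgeR adjusted p 0.526), and between treated and control lungs it was 0.17 (SE 0.177, edgeR adjusted p 0.998).

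The epithelial marker sum was 2534 to 2966 CPM in control, 1763 to 2380 CPM in hypoplastic and 2247 to 2485 CPM in treated lungs. Both the hypoplastic and the treated sums lay below the controls without overlap. Of the 8 markers, 7 had a log2 difference below 0 in hypoplastic against control lungs, and 7 in treated against control lungs. Cdh1 was below the controls without overlap in both groups. It was at 670 to 717 CPM in control, 537 to 610 CPM in hypoplastic and 584 to 627 CPM in treated lungs. Sftpc is a surfactant gene of distal epithelium. Its level was 645 to 951 CPM in control, 292 to 496 CPM in hypoplastic and 567 to 758 CPM in treated lungs. Its hypoplastic lungs lay below the controls, and its treated lungs overlapped with the controls. The 7 markers other than Sftpc summed to 1799 to 2015, 1471 to 1884 and 1680 to 1875 CPM, and the groups overlapped. The part of the epithelial markers in the values of Fgfr2 and Etv5 was not tested. In whole lungs, fewer cells of a type and less RNA per cell cannot be told apart.

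Of the feedback inhibitors, Spry1 (Gene ID 294981) was at 20.3, 16.8 and 26.8 CPM in control, 19.8, 30.0 and 22.6 CPM in hypoplastic and 20.7, 24.05 and 27.3 CPM in treated lungs. The 3 groups overlapped, and the hypoplastic and treated means were 24.09 and 24.01 CPM. The log2 difference between hypoplastic and control lungs was 0.18 (SE 0.208, edgeR adjusted p 0.758), and -0.01 without hypoplastic library 2. That between treated and hypoplastic lungs was -0.0052 (SE 0.207, edgeR adjusted p 0.997).

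Spry2 (Gene ID 306141), the Sprouty gene best known for limiting branch number in the lung epithelium, was at 52.1, 38.0 and 76.4 CPM in control, 58.0, 63.0 and 63.3 CPM in hypoplastic and 56.2, 55.2 and 61.2 CPM in treated lungs. The 6 lungs with oligohydramnios lay within 55.2 to 63.3 CPM, inside the range of the controls, whose highest lung had 2.01 times the lowest. From control to hypoplastic lungs it differed by 0.14 on the log2 scale (SE 0.207, edgeR adjusted p 0.807). This was 0.44 without control library 3 (edgeR unadjusted p 0.0148, adjusted p 0.361) and -0.07 without control library 2.

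Spry4 (Gene ID 291610) was at 87.6, 52.1 and 122 CPM in control, 98.4, 152 and 80.0 CPM in hypoplastic and 72.8, 118 and 124 CPM in treated lungs. Each group spanned at least 1.7 times from its lowest to its highest lung, and the groups overlapped. The log2 difference between hypoplastic and control lungs was 0.34 (95% interval -0.41 to 1.08, edgeR adjusted p 0.712), 0.07 without control library 2 and 0.03 without hypoplastic library 2. From hypoplastic to treated lungs it was -0.07 (interval -0.81 to 0.67, edgeR adjusted p 0.984).

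Dusp6 (Gene ID 116663), the ERK phosphatase, was the least variable member within groups, with an SD of 0.131 on the log2 scale. It was at 80.5, 68.4 and 75.1 CPM in control, 78.4, 78.5 and 63.6 CPM in hypoplastic and 79.6, 89.3 and 83.3 CPM in treated lungs. The treated lungs were all above the hypoplastic lungs, by a narrow margin (79.6 against 78.5 CPM), and overlapped with control library 1. From hypoplastic to treated lungs the log2 difference was 0.19 (95% interval -0.06 to 0.45, edgeR unadjusted p 0.117, adjusted p 0.915), and it was 0.10 without hypoplastic library 3. Between hypoplastic and control lungs it was -0.02 (interval -0.28 to 0.23, edgeR adjusted p 0.948).

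**Figure D2:**
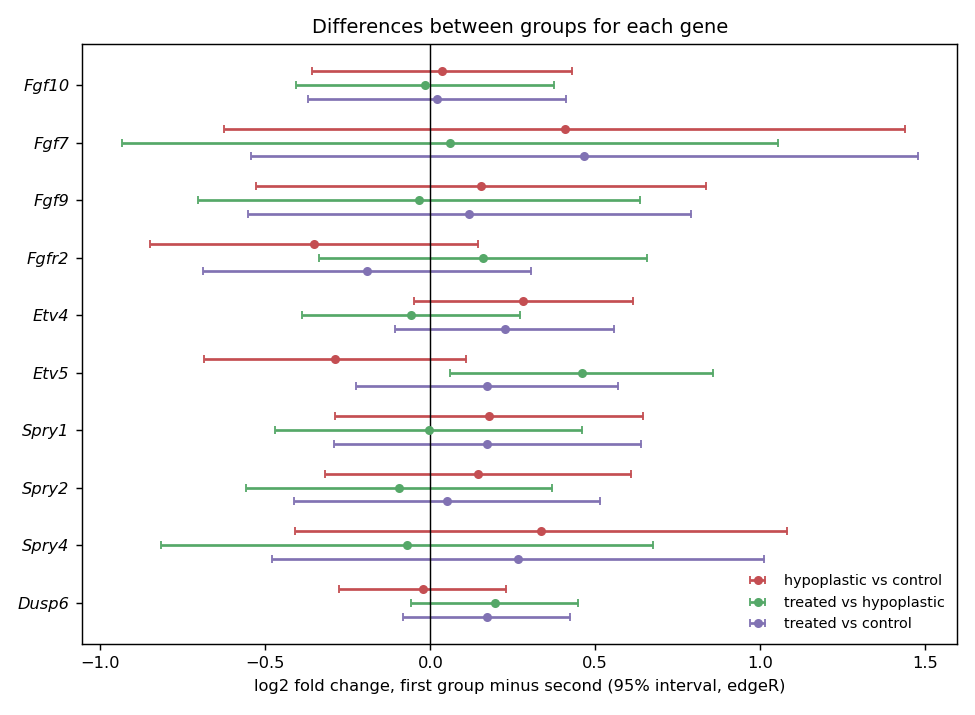
Log2 fold change of each gene (x axis, first group minus second, with its 95% interval from the edgeR fit) in the 3 comparisons (colours). The interval of Etv5 in treated against hypoplastic lungs (0.06 to 0.86) is the only one of the 30 that leaves out 0, before adjustment for the number of genes tested, and those of Fgf7 and Spry4 are the widest.

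How the members varied with each other over the 9 lungs was examined in all 45 pairs of members, as the correlation of log2 CPM. Fgf7, Spry1, Spry2 and Spry4 tended to be high in the same lungs, with Pearson's r of 0.740 to 0.919 in their 6 pairs over all 9 lungs. Fgf7 and Spry1 were the closest pair (r = 0.919, exact permutation p = 0.000198, adjusted p = 0.00893 over the 45 pairs; Spearman's rho 0.900, exact permutation p = 0.00203, adjusted p = 0.0911). Fgf7 and Spry2 followed (r = 0.860, exact permutation p = 0.000672, adjusted p = 0.0131; rho 0.867, exact permutation p = 0.00451, adjusted p = 0.0911), and then Spry1 and Spry4 (r = 0.911, exact permutation p = 0.000874, adjusted p = 0.0131; rho 0.850, exact permutation p = 0.00607, adjusted p = 0.0911). These 3 pairs were the only ones with an adjusted p under 0.05 by Pearson's r, and none had one by Spearman's rho.

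With the group means removed and the groups pooled, r was 0.918, 0.887 and 0.900 in the same 3 pairs. Spry2 spread mostly among the controls, with an SD of 35.0% of its mean. In hypoplastic and treated lungs its SD was 4.85% and 5.58% of the mean. The pooled r of Fgf7 and Spry2 therefore rested mainly on the controls, and r inside each group was not computed. Control library 2, the lowest lung in all 4 genes, added to them. Without it r was 0.866, 0.730 and 0.852 over 8 lungs, and no pair kept an adjusted p under 0.05 (exact permutation, adjusted p = 0.166, 0.388 and 0.166). The other 3 pairs of the 4 genes had r of 0.800 (Fgf7 and Spry4), 0.778 (Spry1 and Spry2) and 0.740 (Spry2 and Spry4), and 0.625, 0.604 and 0.411 without that library. Each pair was also taken without the 2 libraries farthest from the median of its first gene. Then r was 0.914 for Fgf7 and Spry1, 0.616 for Fgf7 and Spry2 and 0.764 for Spry1 and Spry4. It was 0.647 for Fgf7 and Spry4, 0.654 for Spry1 and Spry2 and 0.364 for Spry2 and Spry4. Fgf10, which acts on the same receptor as Fgf7, had r of -0.20, 0.37 and -0.26 with Spry1, Spry2 and Spry4 (exact permutation, adjusted p = 0.701, 0.582 and 0.652). Without control library 2 its r with Spry4 was -0.841 (exact permutation, adjusted p = 0.166).

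Fgfr2 and Etv5 were high in the same lungs as each other (r = 0.712, exact permutation p = 0.0299, adjusted p = 0.182; rho 0.733, exact permutation p = 0.0311, adjusted p = 0.233). With group means removed r was 0.865, and without control library 2 and treated library 3 it was 0.824. Both had negative r with each of Fgf7, Spry1, Spry2 and Spry4, from -0.697 to -0.488, none of which passed (exact permutation, adjusted p = 0.182 to 0.414). Without control library 2 the r of Fgfr2 with Spry2 was -0.152 and that with Fgf7 was -0.343. The r of Etv4 with Etv5 was -0.04 (exact permutation, adjusted p = 0.928).

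These genes were set beside summed levels of marker genes. The 8 mesenchymal markers summed to 1904 CPM in control library 2 and 14900 CPM in hypoplastic library 2, with 3157 to 6323 CPM in the other 7 lungs. The collagen genes Col1a1, Col1a2 and Col3a1 made up most of it, with 1828 and 14314 CPM in these libraries. The other 5 markers summed to 75.6 and 587 CPM in the same libraries. Among them Pdgfra was at 35.6 and 333 CPM, Dcn at 2.25 and 147 CPM and Lum at 0.303 and 75.1 CPM. Tcf21 and Meox2, transcription factors of lung mesenchyme, did not follow: in hypoplastic library 2 Tcf21 was nearly the same and Meox2 was lower. They were at 22.3 and 15.1 CPM in control library 2 and at 21.8 and 10.5 CPM in hypoplastic library 2. The log2 of the 8-marker sum had r of 0.696 with Fgf7, 0.823 with Spry1, 0.736 with Spry2, 0.770 with Spry4 and -0.704 with Etv5. None of these passed after adjustment over the 20 relations computed between 10 members and 2 marker lists (exact permutation, adjusted p = 0.103 to 0.152). By Spearman's rho, that of Spry2 did (rho 0.900, exact permutation p = 0.00203, adjusted p = 0.0406). Without control library 2 and hypoplastic library 2, r was 0.448, 0.462, 0.821, 0.151 and -0.714. The epithelial sum had r of 0.598 with Fgfr2 and 0.647 with Etv5, and of -0.665, -0.600 and -0.607 with Spry1, Fgf7 and Spry4 (exact permutation, adjusted p = 0.162 to 0.178). Without hypoplastic libraries 2 and 3 these were 0.786, 0.275, -0.556, -0.553 and -0.685. Whether the marker sums reflect cell shares or RNA per cell cannot be told apart, and their part in the pairs was not tested.

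**Figure D3:**
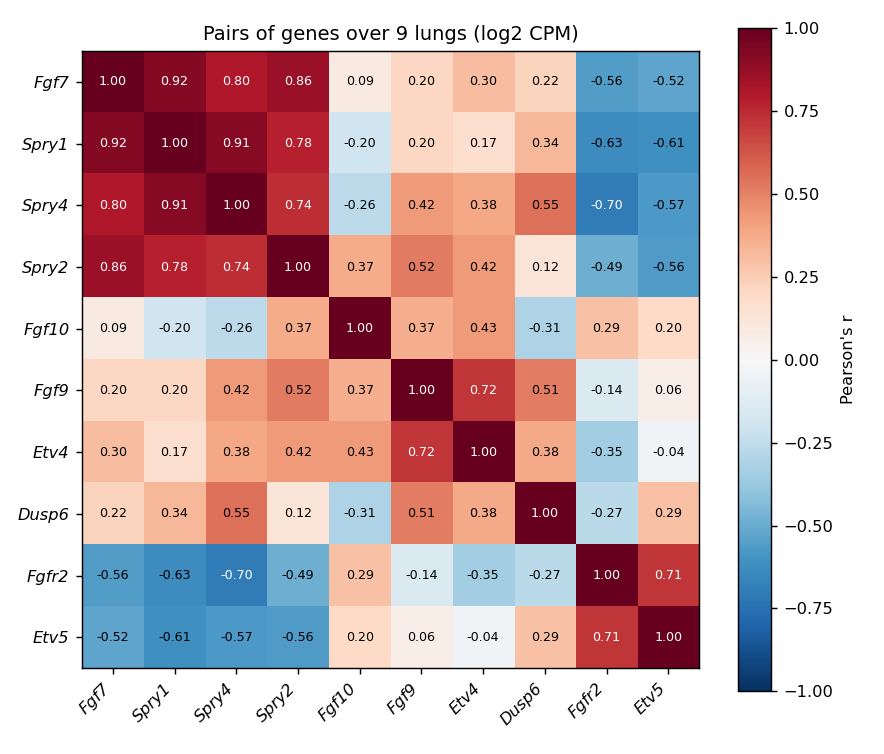
Pearson's r of log2 CPM over the 9 lungs for each pair of the 10 genes (rows and columns; colour and number give r, from -1 to 1). Fgf7, Spry1, Spry4 and Spry2 form a block with r of 0.740 or more, and Fgfr2 and Etv5 (0.712) have negative values with that block.

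**Figure D4:**
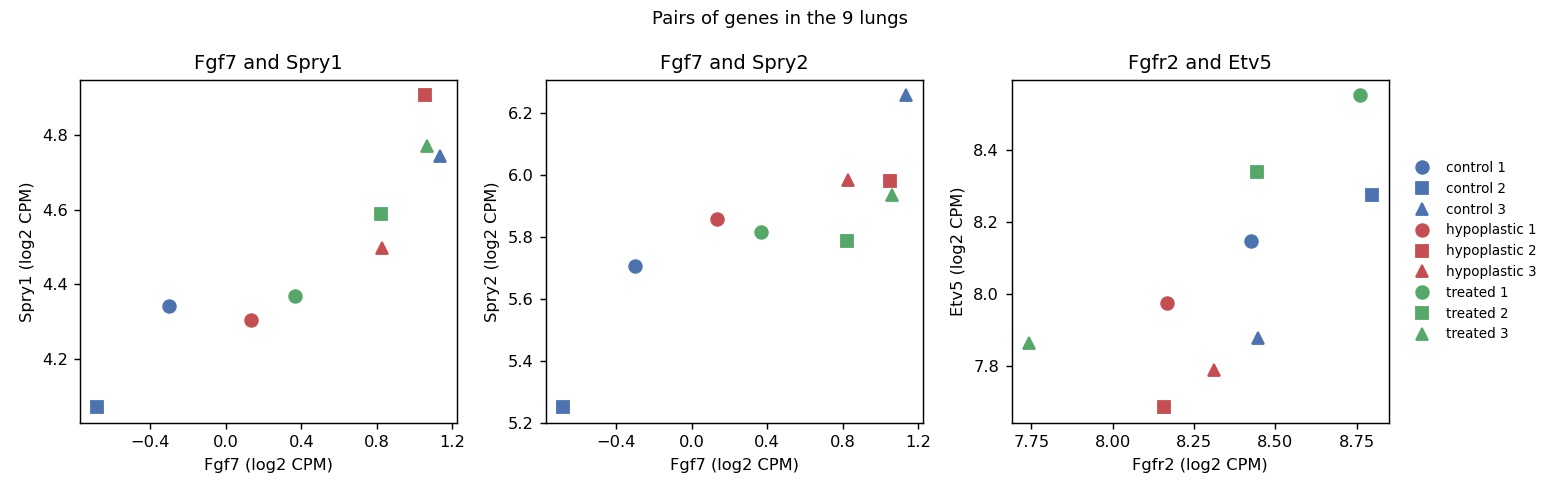
Log2 CPM of Fgf7 against Spry1 and Spry2, and of Fgfr2 against Etv5 (x and y axes), with 1 point per lung; colours are groups and shapes are library numbers. In the plots of Fgf7, control library 2 lies lowest on both axes, and the lungs of the 3 groups are mixed along the trend. In that of Fgfr2 and Etv5 the hypoplastic lungs lie close together (Fgfr2 286 to 318 CPM, Etv5 206 to 252 CPM). Control library 3 and treated library 3 also lie in that range of Etv5.

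The sequences before the start sites of 3 of the 4 genes that varied together (all but Spry4) are shown so that their letters can be compared, together with that of Etv5, which had the smallest p of the 10 in treated against hypoplastic lungs. They are the 250 bases upstream of the annotated start, 5′ to 3′ on the gene's strand, from RefSeq (assembly GRCr8); 9 of the 10 members had an entry, with another start for Spry2 that is not shown. Capitals mark CCGGAA (a site of the type bound by ETS factors) or CCAAT (the CCAAT box), searched on both strands. Shorter forms of the ETS site were not searched. These 2 motifs do not overlap each other in the windows shown. The windows are Fgf7 on the plus strand of chr3:133735377-133735626, Spry1 on the plus strand of chr2:122485097-122485346, Spry2 on the minus strand of chr15:89111927-89112176 and Etv5 on the plus strand of chr11:92113013-92113262.
Fgf7: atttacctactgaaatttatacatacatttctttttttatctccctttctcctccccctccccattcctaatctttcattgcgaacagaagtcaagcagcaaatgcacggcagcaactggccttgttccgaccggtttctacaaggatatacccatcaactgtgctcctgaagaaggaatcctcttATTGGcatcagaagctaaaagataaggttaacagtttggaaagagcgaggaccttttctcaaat
Spry1: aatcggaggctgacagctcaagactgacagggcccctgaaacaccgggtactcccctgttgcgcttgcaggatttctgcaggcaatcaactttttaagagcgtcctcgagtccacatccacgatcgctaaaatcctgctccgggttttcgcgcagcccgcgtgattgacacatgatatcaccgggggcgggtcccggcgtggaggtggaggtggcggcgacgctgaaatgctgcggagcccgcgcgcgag
Spry2: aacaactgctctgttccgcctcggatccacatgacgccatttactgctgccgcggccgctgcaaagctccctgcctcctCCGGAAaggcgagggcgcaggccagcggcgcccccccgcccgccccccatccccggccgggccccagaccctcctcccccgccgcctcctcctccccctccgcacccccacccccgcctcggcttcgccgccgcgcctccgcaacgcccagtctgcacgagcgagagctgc
Etv5: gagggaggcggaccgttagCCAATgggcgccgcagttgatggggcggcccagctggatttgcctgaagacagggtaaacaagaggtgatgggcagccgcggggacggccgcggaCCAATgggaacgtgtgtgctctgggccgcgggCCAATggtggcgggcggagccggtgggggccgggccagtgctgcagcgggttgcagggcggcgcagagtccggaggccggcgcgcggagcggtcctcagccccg

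The windows of Fgf7, Spry1 and Spry2 differed in base composition, with 41.6%, 60.8% and 74.8% G or C against a median of 51.2% in all 33469 windows, and no motif searched was in all 3 of these. CCGGAA was in 1 window of Spry2 and in that of Spry4, and in 12.6% of all windows. CCAAT was in the windows of Fgf7, Fgfr2, Dusp6 and Etv5 and in 34.0% of all windows. That of Etv5 held it 3 times, as did 2.52% of all windows, counting 3 or more. The AP-1 motif TGACTCA was in none of the 10 member windows and in 4.05% of all. A match is a match of letters only, and these windows leave out distant enhancers.

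The rest of the pathway was described with 7 lists of 92 further genes, of which 76 were tested. None was called by edgeR in any comparison. Those with an unadjusted p under 0.05 numbered 8 higher and 3 lower from control to hypoplastic lungs, where such genes made up 12.4% of all genes. From hypoplastic to treated lungs they numbered 3 higher and 1 lower, and from control to treated lungs 2 higher and 0 lower, where 5.56% and 4.17% of all genes did so. These counts are 14.5%, 5.26% and 2.63% of the 76, near or below the shares of all genes.

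Of 18 other FGF ligands, 8 passed the filter and 10, among them Fgf2, Fgf8 and Fgf22, were too low to test. Fgf11, an intracellular member of the family, ranked after Egr1 and Fos by p in hypoplastic against control lungs, with 1.89 CPM ± 0.275 against 1.03 CPM ± 0.165 (SD, n = 3 in each; log2 difference 0.88, SE 0.278, edgeR adjusted p 0.323). Fgf13, another intracellular member, had the smallest p of the pathway in treated against hypoplastic lungs (log2 difference -2.25, SE 0.664, edgeR adjusted p 0.826). It was at 2.81 and 1.73 CPM in hypoplastic libraries 1 and 2, the libraries with high heart muscle markers, and at 0.162 to 0.542 CPM in the other 7 lungs. The part of heart tissue in this value was not tested. The 5 other receptors tested had log2 differences of -0.29 to 0.25 between hypoplastic and control lungs, and Fgfr3, the lowest of them, was at 194 CPM ± 28.4 (SD, n = 3) against 237 CPM ± 40.3 (SD, n = 3).

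The 18 adaptors and kinases of the RAS-ERK cascade that were tested had median log2 differences of 0.02, 0.01 and 0.0057 in the 3 comparisons, with 10, 11 and 10 of them above 0. Of the 10 other inhibitors tested, 7 were above 0 between hypoplastic and control lungs, with a median of 0.06. Spred2, a relative of the Sproutys, was the third by p in treated against hypoplastic lungs, with 15.9 CPM ± 0.114 (SD, n = 3) against 12.9 CPM ± 1.81 (SD, n = 3) (log2 difference 0.30, SE 0.133, edgeR adjusted p 0.896). The 14 heparan sulfate genes tested, whose products hold FGFs at the cell surface, had a median of -0.03 between hypoplastic and control lungs, with 5 above and 9 below 0. Of the 11 genes of the branching tip and of the signals that meet FGF10 there, Nkx2-1, a transcription factor of the lung epithelium, was the second by p in treated against hypoplastic lungs (log2 difference 0.40, SE 0.136, edgeR adjusted p 0.859). It was at 356, 442 and 359 CPM in control, 264, 334 and 300.1 CPM in hypoplastic and 441, 352 and 394 CPM in treated lungs. The hypoplastic lungs lay below both other groups without overlap. The part of the epithelial markers in the values of Nkx2-1 was not tested.

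Of the 10 ERK-responsive genes outside the members, all were above 0 between hypoplastic and control lungs, with a median log2 difference of 0.36 against 0.01 for all genes, though none was called. Without control library 2 it was 9 of 10, and without hypoplastic library 2 it was 8 of 10 (medians 0.39 and 0.32). Between treated and control lungs, a comparison that shares the controls, all 10 were also above 0 (median 0.25). Between treated and hypoplastic lungs 1 of the 10 was above 0 (median -0.10). The 6 neutrophil markers summed to 9.59 to 12.5 CPM in control, 56.1 to 89.7 CPM in hypoplastic and 19.1 to 81.6 CPM in treated lungs. All 6 were above 0 between hypoplastic and control lungs, 5 of them without overlap, and Elane was at 0 in control libraries 2 and 3. Their part in the values of these genes was not tested. The immediate early genes Egr1 and Fos, which ERK switches on within minutes, had the smallest p of the pathway. Egr1 was at 17.6, 21.3 and 17.2 CPM in control, 58.4, 54.6 and 32.1 CPM in hypoplastic and 33.8, 75.6 and 33.1 CPM in treated lungs. Both oligohydramnios groups lay above the controls without overlap. Its log2 difference was 1.37 (SE 0.336, edgeR adjusted p 0.317) between hypoplastic and control lungs and 1.35 (SE 0.336, edgeR adjusted p 0.998) between treated and control lungs, comparisons that share the controls.

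Fos was at 49.8, 59.3 and 46.1 CPM in control, 102, 89.7 and 110 CPM in hypoplastic and 75.4, 121 and 56.1 CPM in treated lungs. The hypoplastic lungs were all above the controls (log2 difference 0.96, SE 0.241, edgeR adjusted p 0.317), while treated library 3 lay among the controls. Jun and Ier3, named after their values were seen, were the other ones of this list with an unadjusted p under 0.05 in that comparison. Their log2 differences were 0.41 (SE 0.139) and 0.96 (SE 0.331), with edgeR adjusted p of 0.333 and 0.338. Neither the Sprouty genes nor Dusp6 had a difference of this size relative to its error.

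**Figure D5:**
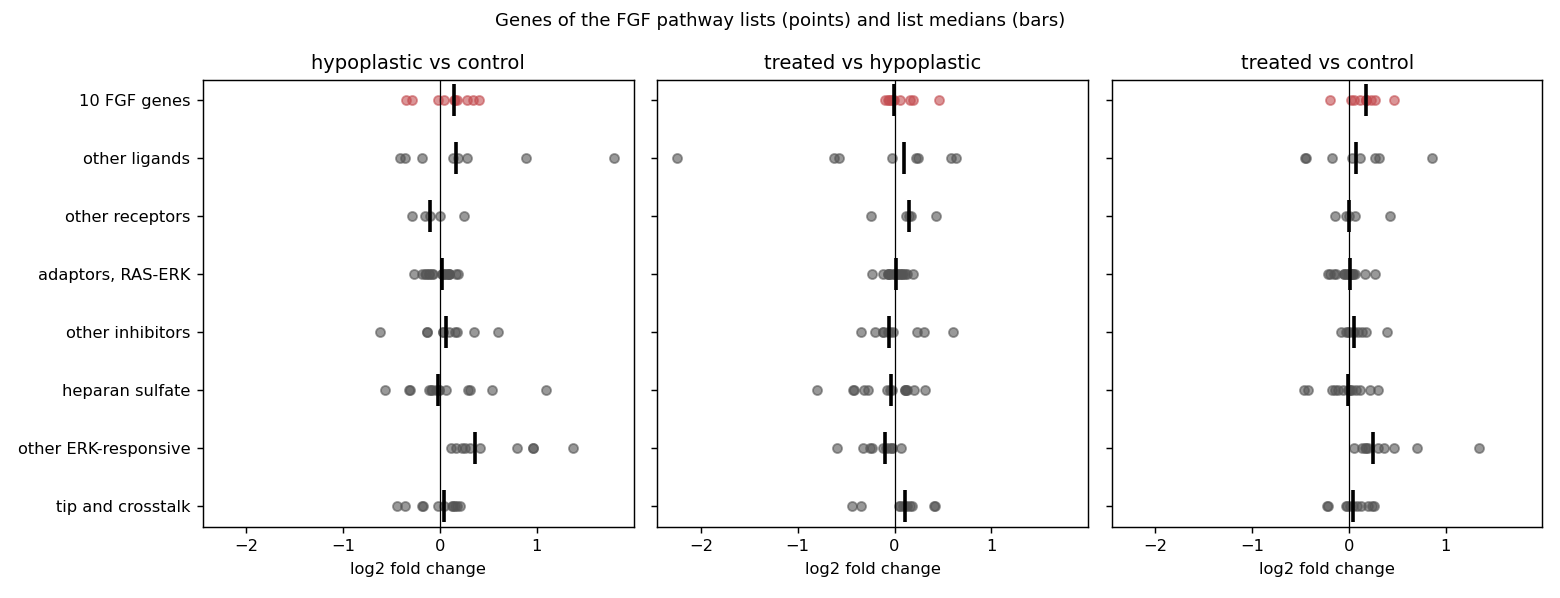
Log2 fold change (x axis) of each tested gene (points) in the 10 members and 7 further lists (y axis), with a bar at each list's median, in the 3 comparisons (panels). In hypoplastic against control lungs all 10 other ERK-responsive genes lie above 0 (median 0.36), while the members lie on both sides (median 0.15).

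The genes whose pattern over the 9 lungs was most like that of Fgf10, among 9564 genes with a mean of at least 5 CPM, were Slc35e3 (r = 0.927), Gpc1 (0.906) and C1galt1c1 (0.899). Gpc1 encodes glypican 1, a heparan sulfate proteoglycan. Those most like Etv5 were Ylpm1 (0.976), Hira (0.973) and Hdc (0.966). These values describe the likeness over 9 libraries, which share depth and cell make-up, and are the highest of many.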

How the data were processed

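Ribosome-depleted total RNA of 9 lungs was sequenced; all RNA was extracted on 1 day, per the labels' protocols. The authors deposited 1 table of estimated counts for 17465 genes, of which 19.5% of the nonzero values were exactly whole. The submitters' processing notes name the build rn7 and DESeq2; the sources used here do not give the aligner, annotation or counting settings. Reads shared by similar genes may have been split. Library columns were matched to the lungs by name.

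Counts were rounded and tested with edgeR 4.0.16 (glmQLFit with legacy=FALSE, glmQLFTest; R 4.3.3) after TMM scaling and filterByExpr, which left 12966 genes; all 9 libraries entered 1 fit (6 residual degrees of freedom). P-values were adjusted by Benjamini-Hochberg over all genes tested, with 0.05 as the threshold for a call. Standard errors are the log2 difference divided by the square root of F, and intervals (95%) follow from them. Correlations used log2 CPM with a prior count of 2 and exact permutation over all pairings, two-sided. Symbols came from RefSeq (GRCr8), which matched 99.1% of the IDs; its coordinates are given only for the printed sequences, since the counts use rn7. The scripts were tested on simulated counts with known changes between hypoplastic and control lungs. Of 100 genes changed 2-fold, 63% were called, and of 100 changed 4-fold, 95%. Smaller changes were not simulated, so the absence of calls does not show that smaller changes were absent.

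Alternatives were RLE factors, DESeq2 1.42.0, limma 3.58.1 voom, 2 other filters, the 6 libraries compared, a replicate block, sex, removal of 6 ribosomal and 7SL rows and omission of each library. The relations to marker sums, their splits by gene, the ratios and the omission of libraries from the pairs were chosen after the values were seen. The members and lists were chosen with earlier results of these data known. Named genes were all members, the 3 of smallest p per comparison in the further lists, and the 3 most like Fgf10 and Etv5. One gene that this rule names is not reported here. Libraries of 1 group differed beyond sampling noise (the smallest chi-square divided by its degrees of freedom was 137).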

Additional observations from a re-analysis of the deposited data

How the results depend on the processing

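No member was called in any comparison under any of the 18 alternatives run; the smallest edgeR, DESeq2 or limma adjusted p of a member was 0.361. Of 540 log2 differences of members, 507 kept their sign and 33 reversed, to a size of at most 0.233; the cause was not tested. Between treated and hypoplastic lungs that of Spry1 was 0.0070 with limma voom, 0.0029 with sex as a covariate and 0.00041 with only the 6 libraries compared. Between treated and control lungs that of Fgf9 was -0.0031 with sex as a covariate. With 1 library left out, differences between hypoplastic and control lungs ran from -0.084 to 0.069 for Dusp6, -0.072 to 0.14 for Fgf10, -0.070 to 0.32 for Fgf9, -0.010 to 0.38 for Spry1 and -0.067 to 0.44 for Spry2. From hypoplastic to treated lungs the ranges were -0.12 to 0.019 for Etv4, -0.12 to 0.093 for Fgf10, -0.17 to 0.26 for Fgf7, -0.19 to 0.15 for Fgf9, -0.077 to 0.40 for Fgfr2, -0.13 to 0.18 for Spry1 and -0.25 to 0.23 for Spry4. From control to treated lungs the ranges were -0.068 to 0.085 for Fgf10, -0.10 to 0.29 for Fgf9, -0.43 to 0.044 for Fgfr2 and -0.16 to 0.35 for Spry2.

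Among all genes, edgeR called 1, 0 and 0 in the 3 comparisons and DESeq2 198, 15 and 16. The first count was 4 with only the 6 libraries compared. Leaving out 1 library gave 0 to 45, 0 to 44 and 0 to 1 genes (45 and 44 without hypoplastic library 3), and 0 to 4 pairs of members in place of 3. With the replicate block the counts were 2, 0 and 0. No label says that lungs of 1 number belong together. Deviations from the group means correlated at -0.282 to 0.227 in the 9 same-numbered pairs (above 0.1 in 3). In the 18 pairs of other numbers they correlated at -0.439 to 0.389 (above 0.1 in 7), so no pairing was detected. The members of lowest counts were Fgf7 (35 to 162 a library) and Fgf9 (51 to 142).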

Other observations

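The ratio of 2 members within a library does not depend on the scaling between libraries, and was examined for all 45 pairs after the values had been seen. The ratio of Etv5 to Etv4 counts was 22.8, 33.4 and 21.3 in control, 17.2, 16.9 and 16.9 in hypoplastic and 29.2, 23.8 and 19.6 in treated lungs. The 3 hypoplastic lungs were nearly equal and below all other lungs. The mean log2 ratio was lower in hypoplastic than in control lungs by a difference of -0.57, and higher in treated than in hypoplastic lungs by 0.49. The exact two-sided permutation p was 0.1 in both, the smallest that 3 against 3 lungs allow, with adjusted p of at least 0.75 over the 45 ratios. The 45 ratios share 10 genes. Of them, 3 (6.67%) did not overlap between hypoplastic and control lungs and 3 (6.67%) between treated and hypoplastic lungs. Between treated and control lungs 1 (2.22%) did not overlap. Among single genes the shares were 16.7%, 9.81% and 9.39%, which is another measure, and ratios of other genes were not computed.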
